A study of Mus musculus with 188 samples.

Results

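The data are bulk RNA-seq counts from organotypic brain slice cultures of C57BL/6J mice, and the account below is restricted to 10 genes that mark astrocytes: Gfap, Aqp4, Aldh1l1, Slc1a2, Slc1a3, Gja1, Glul, S100b, Aldoc and Sox9. Members were taken by matching the Ensembl identifier of each count row to these symbols, and all 10 were found among the 25655 genes counted in batch 1 and the 25528 genes counted in batches 2 and 3. All 10 passed the filter on low counts in both parts of the data. The study exposed slices to hemoglobin (Hb) or heme, free or bound to their plasma scavengers haptoglobin (Hp) and hemopexin (Hpx), to model the toxicity of blood breakdown products after intracranial bleeding. Slices were cut coronally at 150 μm from male and female wild-type mice of 6 to 8 weeks, kept at an air-liquid interface, moved to serum-free medium on day 4 and treated on day 7. The serum-free medium of all slices, controls included, held the supplements N-2, B-27 Plus and G-5, and the added proteins were human.

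Batch 1 held 60 libraries taken at 24 h, 10 in each of 6 groups: control, heme-albumin (heme carried by its low-affinity carrier albumin) at 12.5, 50, 200 and 400 μM, and hemeHpx (heme complexed with hemopexin) at 200 μM. The titles of the hemeHpx libraries name haptoglobin, whereas their treatment tags and library names give hemopexin, and the tags were followed. Batches 2 and 3 were taken at 24 h and 48 h. Libraries with a group numbered, at 24 h and 48 h in turn, 10 and 9 for controls, 10 and 10 for Hb at 200 μM, 10 and 10 for Hb at 400 μM, 8 and 8 for the complex HbHp at 200 μM, 4 and 5 for HbHp at 400 μM, and 12 and 11 for Hp alone at 400 μM. Library names in batches 2 and 3 start with E1 or E2, a prefix that the labels do not explain. All HbHp libraries with a group are named E2, while 7 of 10 controls at 24 h and 7 of 9 at 48 h are named E1. All HbHp and Hp libraries with a group are of batch 3, which holds only 1 E1 and 1 E2 control at each time. Most controls and Hb libraries are of batch 2, so comparisons of HbHp or Hp with them are nearly confounded with batch. A further 21 libraries have labels that contradict each other and entered no comparison. The labels do not say which libraries came from the same mouse, so the p-values measure only the spread between these libraries.

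Astrocytes are the main homeostatic glial cells of the brain. They clear glutamate from synapses through the transporters encoded by Slc1a2 and Slc1a3, convert it to glutamine with glutamine synthetase (Glul), move water through aquaporin-4 (Aqp4) at their endfeet, and couple to one another through connexin-43 gap junctions (Gja1). After injury they become reactive and usually enlarge their intermediate filament network, of which glial fibrillary acidic protein (Gfap) is the best known part. Aldoc encodes the brain form of the glycolytic enzyme aldolase, Aldh1l1 an enzyme of folate metabolism, S100b a calcium-binding protein, and Sox9 a transcription factor of the astrocyte lineage.

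Library totals ran from 11038484 to 44199060 counts in batch 1, from 32626873 to 54174784 in batch 2 and from 15587938 to 38839614 in batch 3. Batch 1 controls were the shallowest group of that batch, with a median of 16404294 counts, and carried a median of 4.03% mitochondrial counts against 3.25% in slices given 400 μM heme-albumin. Levels are given as CPM (read counts scaled to a common library size) on library sizes scaled by the trimmed mean of M values. Differences are log2 fold changes with their standard error (SE) from an edgeR quasi-likelihood fit, and a gene was called at a Benjamini-Hochberg adjusted p under 0.05 over all genes tested, 15554 in batch 1 and 16473 in batches 2 and 3. Of the 10 genes, 7 overlap another annotated gene (all but Gja1, Aldoc and Sox9), and since the strand setting of the counting is not given in the sources used here, their counts may hold reads of the neighbour. CPM is a share of each library. In these mixed slices, fewer astrocytes, less RNA per astrocyte and more RNA from other cells therefore cannot be told apart. Whether other cells also held RNA of these 10 genes was not tested.

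In untreated slices the genes differed widely in level. Per kilobase of exon, Gfap was highest in all 3 control groups, at 1401 ± 262 CPM per kb in batch 1 (SD, n = 10), 832 ± 125 at 24 h (n = 10) and 1104 ± 284 at 48 h (n = 9) in batches 2 and 3. Glul came next at 655 ± 103, 658 ± 100.1 and 565 ± 82.04 CPM per kb in the same groups. Means of the other 8 genes lay between 16.2 and 158 CPM per kb in these groups, and Sox9 was lowest at 29.7 ± 6.87, 16.2 ± 2.13 and 22.997 ± 9.37. In batch 1 the neighbours Slc1a3 (157 ± 41.1 CPM per kb) and Aldoc (154 ± 20.1) did not differ beyond their spread, nor did S100b (109 ± 34.02), Aqp4 (103 ± 10.2) and Slc1a2 (97.4 ± 15.9). Spread between replicates also depended on the gene: in batch 1 controls the coefficient of variation of CPM was 9.96% for Aqp4 and 12.997% for Aldoc but 40.5% for Aldh1l1, whose libraries ran from 213 to 856.7 CPM.

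Promoter sequence is shown for the 4 members with a RefSeq entry among the 5 whose RNA fell at 200 μM heme-albumin. The windows run from 250 bases before to 30 bases after a transcription start in RefSeq (GRCm38.p6), and Aldoc has 2 annotated starts. They are chr11:102897171-102897450 for Gfap (minus strand) and chr2:102706188-102706467 for Slc1a2 (plus). The others are chr1:153899679-153899958 for Glul (plus), and chr11:78322823-78323102 and chr11:78323948-78324227 for Aldoc (plus). Every start but that of Glul lies inside its gene as annotated in GENCODE. Capitals mark matches, on either strand, to the STAT-type palindrome TTCNNNGAA or the GC box GGGCGG.
Gfap: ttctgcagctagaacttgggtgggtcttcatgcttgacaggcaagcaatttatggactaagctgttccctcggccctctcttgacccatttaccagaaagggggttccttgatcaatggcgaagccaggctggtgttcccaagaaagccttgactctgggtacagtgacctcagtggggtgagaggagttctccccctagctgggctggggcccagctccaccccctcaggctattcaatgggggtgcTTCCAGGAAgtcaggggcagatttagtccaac
Slc1a2: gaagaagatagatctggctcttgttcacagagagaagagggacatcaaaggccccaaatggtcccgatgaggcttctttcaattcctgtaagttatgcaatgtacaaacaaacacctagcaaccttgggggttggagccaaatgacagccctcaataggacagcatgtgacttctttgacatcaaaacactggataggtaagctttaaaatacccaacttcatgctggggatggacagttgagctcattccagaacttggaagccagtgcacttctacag
Glul: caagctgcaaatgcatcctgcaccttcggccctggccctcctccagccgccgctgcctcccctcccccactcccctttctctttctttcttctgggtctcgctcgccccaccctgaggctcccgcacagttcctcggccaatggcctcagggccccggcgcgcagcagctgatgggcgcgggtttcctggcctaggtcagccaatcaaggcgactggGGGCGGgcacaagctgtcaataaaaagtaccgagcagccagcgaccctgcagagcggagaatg
Aldoc, upstream start: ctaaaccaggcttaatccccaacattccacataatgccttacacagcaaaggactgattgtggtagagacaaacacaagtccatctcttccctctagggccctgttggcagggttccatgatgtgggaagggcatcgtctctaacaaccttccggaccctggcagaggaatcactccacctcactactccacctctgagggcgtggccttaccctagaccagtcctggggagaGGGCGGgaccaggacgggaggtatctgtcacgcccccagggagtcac
Aldoc, downstream start: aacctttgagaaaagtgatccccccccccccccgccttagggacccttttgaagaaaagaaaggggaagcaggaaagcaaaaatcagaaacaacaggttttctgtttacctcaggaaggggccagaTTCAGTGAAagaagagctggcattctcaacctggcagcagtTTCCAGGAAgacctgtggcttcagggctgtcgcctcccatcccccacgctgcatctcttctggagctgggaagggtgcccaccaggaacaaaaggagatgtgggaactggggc
Gfap held 1 palindrome, at the start site itself, and the downstream Aldoc window held 2, while Glul and the upstream Aldoc window held 1 GC box each and Slc1a2 held neither. Among members not called at 200 μM, Slc1a3 held 1 palindrome and 1 GC box, Aldh1l1 held 1 GC box, and Gja1 and S100b held neither. Of 32851 promoter windows of this length, 7.83% held the palindrome and 34.7% the GC box. The core of the antioxidant response element, TGACNNNGC, bound by NRF2, was found in 11.5% of all windows and in none of the windows of the 8 members that have an entry. A match is a description of the letters in a window, and its absence says nothing about the factor.

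Heme-albumin lowered RNA of astrocyte genes at 200 and 400 μM, and none of the 10 was called at the lower doses. At 12.5 μM 0 of the 10 genes were called, and at 50 μM 0 of 10, where 0.045% and 0.463% of all genes were called (edgeR). With 200 μM, 5 of 10 fell and 0 rose, where 13.6% of all genes were called and 6.6% were called lower. With 400 μM, 7 of 10 fell and 0 rose, where 29% were called and 14.3% were called lower. The median log2 fold change over the 10 genes was -0.30 at 200 μM and -0.39 at 400 μM, beside -0.01 over all genes tested at either dose.

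Slc1a2, which encodes GLT-1, the main glutamate transporter of the forebrain, was the only member without overlap with control at both 200 and 400 μM. Its lowest, median and highest library were 1008, 1254 and 1528 CPM in controls, 877, 1099 and 1287 CPM at 12.5 μM, and 899, 1103 and 1536 CPM at 50 μM. At 200 μM they were 775, 913 and 983 CPM, and at 400 μM 508, 755 and 964 CPM. All 10 libraries at 200 μM and all 10 at 400 μM lay below the lowest control. The share of all genes without overlap was not counted, here or in the later comparisons. The log2 fold change was -0.53 ± 0.10 (SE, edgeR adjusted p = 8.37e-05) at 200 μM and -0.80 ± 0.10 (adjusted p = 2.34e-09) at 400 μM, or 0.694 and 0.576 of the control level.

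Aldoc was the only one of the 10 genes called lower at each dose step above 50 μM. Its lowest, median and highest library were 419, 499 and 601 CPM in controls, 289, 366 and 446 CPM at 200 μM, and 216, 296 and 340.1 CPM at 400 μM. At 400 μM every library was below the lowest control, and at 200 μM 8 of 10 were. Against control the log2 fold change was -0.44 ± 0.08 (edgeR adjusted p = 0.000121) at 200 μM and -0.79 ± 0.08 (adjusted p = 5.11e-11) at 400 μM. Going from 50 to 200 μM it fell by 0.38 ± 0.08 (adjusted p = 0.0101), a step at which 0.797% of all genes were called and 0.366% were called lower. From 200 to 400 μM it fell by a further 0.34 ± 0.08 (adjusted p = 0.0191), where 1.27% were called and 0.559% were called lower.

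Aqp4 had a lowest, median and highest library of 539, 643 and 754 CPM in controls, 342, 439 and 643 CPM at 200 μM and 279, 412 and 511 CPM at 400 μM. At 12.5 and 50 μM, where it was not called, its medians were 507 and 517 CPM. There 10 of 10 and 9 of 10 libraries were below the control median, and 6 and 5 were below the lowest control. The groups at 400 μM and control did not overlap, and 9 of 10 libraries at 200 μM were below the lowest control. Its log2 fold change was -0.53 ± 0.09 (edgeR adjusted p = 4.8e-05) at 200 μM and -0.66 ± 0.09 (adjusted p = 1.01e-07) at 400 μM. Gja1, the other gene of the endfoot and junction membrane in the set, ran from 222 to 417 CPM in controls and from 233 to 384 CPM at 400 μM. These ranges overlapped, with 9 of 10 treated libraries below the control median, and Gja1 was called at 400 μM only (-0.36 ± 0.12, adjusted p = 0.0189).

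Glul ran from 1706 to 2684 CPM in controls, with a median of 2187, from 1512 to 2097 CPM (median 1685) at 200 μM and from 1141 to 2160.4 CPM (median 1620.1) at 400 μM. Every treated library at both doses was below the control median, yet the ranges overlapped. Its log2 fold change was -0.35 ± 0.10 (edgeR adjusted p = 0.0193) at 200 μM and -0.38 ± 0.10 (adjusted p = 0.00461) at 400 μM. Gfap moved by a like amount from a much higher level: 4281, 6349 and 7231 CPM in controls, 3419.6, 4428 and 6412.5 CPM at 200 μM, and 2905, 4499 and 5396 CPM at 400 μM. Of the Gfap libraries, 9 of 10 at 200 μM and 10 of 10 at 400 μM were below the control median, and 4 of 10 at each dose were below the lowest control. The Gfap log2 fold change was -0.34 ± 0.11 (adjusted p = 0.0228) and -0.49 ± 0.11 (adjusted p = 0.000264). When the 9 shallowest libraries, 5 of them controls, were left out, the calls at 200 μM were lost for Gfap (-0.37, adjusted p = 0.0534) and Glul (-0.36, adjusted p = 0.0837). The Gfap call at 200 μM was also lost with no low-count filter (edgeR adjusted p = 0.0592).

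Of the remaining 4 genes 1 was called. S100b was called at 400 μM only (-0.40 ± 0.14, edgeR adjusted p = 0.0322), with libraries between 85.5 and 151 CPM against 116 to 262 CPM in controls. Without the same 9 libraries its log2 fold change was -0.25 (adjusted p = 0.297). With no low-count filter the S100b call was lost as well (edgeR adjusted p = 0.0512). Slc1a3, the second astrocytic glutamate transporter (GLAST), had log2 fold changes of -0.21 ± 0.15 and -0.25 ± 0.15 at 200 and 400 μM (adjusted p = 0.384 and 0.206). Aldh1l1, the gene with the widest spread, had -0.07 ± 0.24 and -0.28 ± 0.24 (adjusted p = 0.892 and 0.405). Sox9 was the only member with a positive estimate at both doses, 0.10 ± 0.12 and 0.24 ± 0.12 (adjusted p = 0.642 and 0.143), and 3 of its 10 libraries at 400 μM exceeded the highest control.

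**Figure D1:**
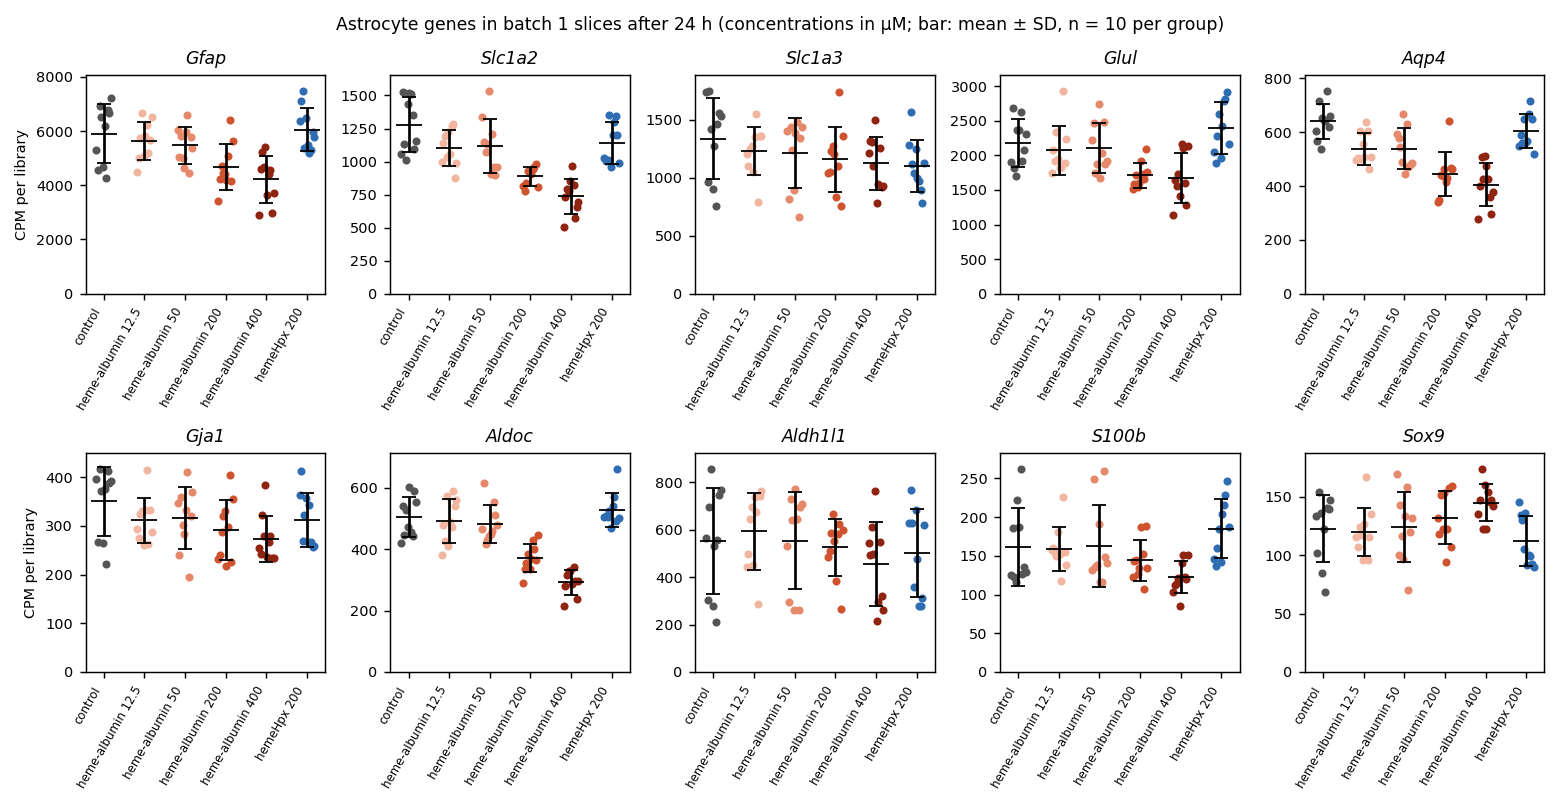
CPM of the 10 astrocyte genes in each of the 60 libraries of batch 1 (vertical axes from 0, 1 panel per gene), by treatment on the horizontal axis with doses in μM; points are libraries and black bars the mean ± SD of 10. Aldoc and Slc1a2 step down at 200 and 400 μM heme-albumin, while Slc1a3, Aldh1l1 and Sox9 overlap across all groups. With hemeHpx Aldoc sits near the control level, and 7 of 10 Slc1a2 libraries lie below the control median.

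In slices given heme as its hemopexin complex these genes stayed near the control level. The heme preparations differed in their carrier protein, albumin or hemopexin. No group received either carrier without heme, so the part of the carriers, here and in the dose comparisons, was not tested. With 200 μM hemeHpx 0 of 10 genes were called against control (edgeR), where 8.2% of all genes were called, and the 10 log2 fold changes lay between -0.28 (Slc1a3) and 0.20 (S100b). Compared directly with 200 μM heme-albumin, 5 of 10 genes were higher and 0 lower, where 25.9% of all genes were called and 13% were called higher. The first shares its control libraries and the second its heme-albumin libraries with the dose comparisons.

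The 5 genes higher with hemeHpx were Gfap, Aqp4, Slc1a2, Glul and Aldoc. Aldoc had the widest separation, with libraries from 468 to 660.1 CPM (median 506) in hemeHpx slices, all 10 above the highest heme-albumin library, and a log2 fold change of 0.51 ± 0.08 (edgeR adjusted p = 1.4e-05). Slc1a2 ran from 962 to 1354 CPM (median 1111) with 9 of 10 libraries above the highest heme-albumin library (0.36 ± 0.10, adjusted p = 0.00563). Glul ran from 1883 to 2921 CPM (median 2352; 0.48 ± 0.10, adjusted p = 0.000899), with 7 of 10 above. For Aqp4 the range was 521 to 716 CPM (median 579; 0.44 ± 0.09, adjusted p = 0.000598), and for Gfap it was 5193 to 7485 CPM (median 5868; 0.37 ± 0.11, adjusted p = 0.00819), with 4 and 3 libraries above. S100b was close to the threshold without passing it (0.36 ± 0.14, adjusted p = 0.0555). DESeq2 called it (adjusted p = 0.0469). So did edgeR with a GC and length correction (0.0482) or with the name code as a replicate block (0.0414). Against control, 7 of 10 Slc1a2 libraries with hemeHpx were below the control median of 1254 CPM and 3 were below the lowest control.

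**Figure D2:**
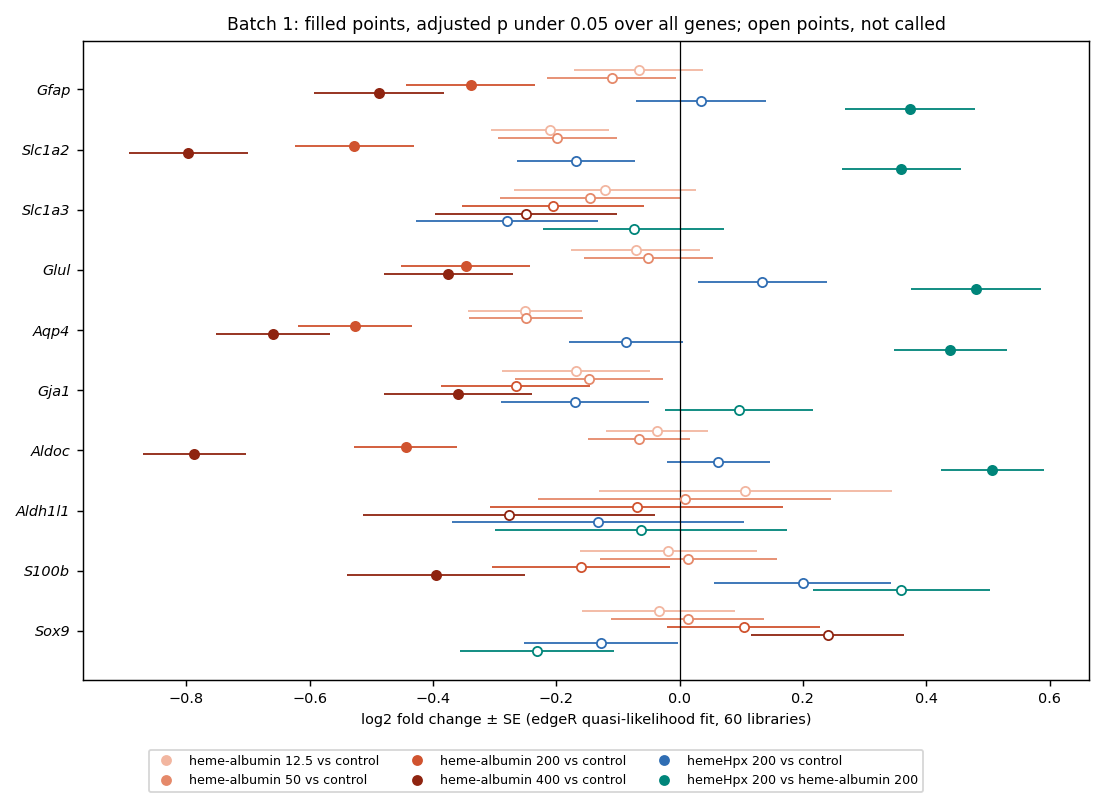
Log2 fold change ± SE (horizontal axis) of each gene (vertical axis) in 6 comparisons of batch 1, coloured by comparison, with filled points for an adjusted p under 0.05. The filled points at 200 and 400 μM heme-albumin all lie below 0 and those of hemeHpx against heme-albumin all lie above 0.

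The wider astrocyte programme was described with lists of genes that are not members, to be read against the 29% of all genes called at 400 μM, 14.7% higher and 14.3% lower. Of 14 genes for water, ion and junction proteins of astrocytes, 9 fell and 0 rose at 400 μM heme-albumin, with a median log2 fold change of -0.26; Gjb6 (connexin-30) changed by -1.10 ± 0.38, Slc4a4 (a bicarbonate cotransporter) by -0.67 ± 0.11 and Atp1b2 (a sodium pump subunit) by -0.64 ± 0.10. Among 26 genes for surface and secreted proteins, 15 fell and 0 rose (median -0.42), led by Ntsr2 (a neurotensin receptor, -1.29 ± 0.24), Slc39a12 (a zinc transporter, -1.11 ± 0.16) and Thbs4 (thrombospondin-4, -1.07 ± 0.21). Of 9 other genes of glutamate, glutamine and GABA handling that passed the filter, 5 fell and 0 rose (median -0.27), among them Slc7a10 (a small amino acid transporter, -0.85 ± 0.22) and Abat (GABA transaminase, -0.68 ± 0.08). Metabolic genes were mixed, with 9 of 18 lower and 1 higher (median -0.24), and Gpam (glycerol lipid synthesis), Ppp1r3c and Pygb (glycogen metabolism) changed by -0.67 ± 0.08, -0.56 ± 0.08 and -0.47 ± 0.09. Of 16 transcription factors 5 fell and 1 rose (median -0.13), where Hes5 (a Notch target) changed by -1.05 ± 0.39, Id4 by -0.62 ± 0.15 and Olig2 by 0.42 ± 0.11. Beside these medians, the median over all genes tested at 400 μM was -0.01.

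Genes known from reactive astrocytes split in both directions at 400 μM heme-albumin. Of 35 genes 10 rose and 8 fell, beside 14.7% and 14.3% of all genes, with a median log2 fold change of -0.15. Those that rose included Cxcl10 (a chemokine, 1.74 ± 0.33), Clcf1 (a cytokine, 1.62 ± 0.25) and Maff (a small MAF transcription factor, 1.26 ± 0.16). Slc10a6 (-1.86 ± 0.18) fell, as did Fkbp5 (-0.65 ± 0.05), a glucocorticoid-induced chaperone, and Serpina3n (-0.39 ± 0.13), a protease inhibitor often used as a reactive marker. Maff, Fkbp5 and Serpina3n were named after their values were seen. Filament and progenitor genes other than Gfap gave 1 rise (Cd44, 0.27 ± 0.06) and 1 fall (Prom1, -0.56 ± 0.12) among 10, a share below the 29% of all genes called.

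Markers of other cell types were examined in the same libraries. Of 14 microglial genes 9 fell at 200 μM heme-albumin, where 6.6% of all genes were called lower, and 4 fell at 400 μM, where 14.3% were. With hemeHpx 13 of the 14 were higher than with heme-albumin, where 13% of all genes were called higher. The summed level of the microglial list ran from 980 to 4101 CPM in batch 1 controls, 706 to 1942 CPM at 200 μM heme-albumin and 1303 to 3423 CPM with hemeHpx. Of 12 oligodendrocyte genes 0 were called at 200 or at 400 μM, and the neuronal list had 1 of 18 higher at 200 μM, 2 of 18 higher at 400 μM and 0 lower. All 14 NRF2 target genes rose at both doses. Of all genes, 6.98% were called higher at 200 μM and 14.7% at 400 μM. The neuronal counts did not exceed these shares. The part of changes in microglia or other cells in the astrocyte result was not tested.

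Hemoglobin did not change any of the 10 genes detectably. With Hb at 200 and 400 μM, 0 of 10 were called at 24 h and 0 of 10 at 48 h (edgeR), where the share of all genes called was 0.0971% and 0.522% at 24 h and 0.31% and 0.601% at 48 h. Over these 4 comparisons the log2 fold changes of the 10 genes ran from -0.23 (Aqp4, 200 μM, 48 h) to 0.23 (Sox9, 400 μM, 24 h). Aldoc had -0.12 ± 0.08 at 200 μM and at 400 μM after 24 h, and -0.12 ± 0.08 and -0.10 ± 0.08 after 48 h. One library of each 24 h Hb group stood apart: Gfap was at 869 CPM in replicate 10 of Hb 200 μM and at 912 CPM in replicate 3 of Hb 400 μM, while all others of these groups had at least 2828 CPM. Both libraries carry the same code in their names, and without them 0 of 10 genes were called in either group as well.

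At 24 h the scavenger groups gave no call either. HbHp at 200 and 400 μM and Hp alone at 400 μM each had 0 of 10 genes called against control, where 1.93%, 5.15% and 0.704% of all genes were called. Set against Hb at the same dose, HbHp had 0 of 10 called at 200 μM and at 400 μM (0.607% and 2.21% of all genes), and HbHp against Hp at 400 μM had 0 of 10 (0.619%). The largest of these 60 estimates in size was 0.34 ± 0.24 for Sox9 with HbHp at 400 μM against control, with an adjusted p of 0.503.

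After 48 h Aldoc fell with HbHp at 400 μM, and the call was kept in 19 of 19 alternative analyses. The 5 HbHp libraries had 175, 192, 230.1, 248 and 252 CPM. Control libraries ran from 290.2 to 365 CPM (median 347), the 2 controls that share the E2 prefix being at 345 and 347 CPM. No HbHp library at 400 μM reached the lowest control, the lowest Hb library at 400 μM (281 CPM) or the lowest Hp library (271 CPM). The log2 fold change was -0.71 ± 0.11 against control (edgeR adjusted p = 3.18e-06), -0.60 ± 0.11 against Hb at 400 μM (adjusted p = 0.000318) and -0.53 ± 0.10 against Hp (adjusted p = 0.000837). Fitted on E2 libraries alone it was -0.69 against control, with an adjusted p of 0.00165. The summed level of the 14 microglial genes ran from 3067 to 7096 CPM in HbHp at 400 μM and from 1067 to 7463 CPM in controls at 48 h, among which the 2 E2 controls had 6689 and 7463 CPM. The summed level of the 18 neuronal genes was 1146 and 1524 CPM in these 2 controls and ran from 699 to 828 CPM in HbHp at 400 μM, without overlap, and from 607 to 1013 CPM in E1 controls. The part of either in the result was not tested. At 200 μM HbHp the estimate was -0.27 ± 0.10 (adjusted p = 0.0646), and the change between 24 h and 48 h in the effect of 400 μM was not called (-0.53 ± 0.15, adjusted p = 0.259).

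Against control at 48 h, 2 of 10 genes were lower with HbHp at 400 μM, where 11.9% of all genes were called and 4.56% were called lower; the second was Gfap. Its HbHp libraries had 2673, 3492, 3539, 3778 and 4139 CPM, while the E1 controls ran from 3108 to 6534 CPM and the 2 E2 controls had 3905 and 4401 CPM. The groups overlapped, and the log2 fold change of -0.69 ± 0.23 (edgeR adjusted p = 0.0332) became -0.34 with an adjusted p of 0.401 in E2 libraries alone. Without HbHp replicate 3 or replicate 4 the Gfap call was lost (edgeR adjusted p = 0.0584 and 0.105). With HbHp at 200 μM 1 of 10 was lower (11.9% of all genes called, 4.85% lower) and with Hp at 400 μM 1 of 10 (10.8% and 5.88%), and in both it was Aldh1l1. With HbHp at 400 μM Aldh1l1 was just above the threshold (-0.77, edgeR adjusted p = 0.0505), and DESeq2 called it (adjusted p = 0.0298). In E2 libraries alone that log2 fold change was -0.15 (edgeR adjusted p = 0.83). Against Hb at 48 h, HbHp had 0 of 10 called at 200 μM (4.98%) and 1 of 10 lower at 400 μM (4.28% and 1.44%), and against Hp it had 1 of 10 lower (1.44% and 0.413%).

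The Aldh1l1 calls at 48 h were not made among E2 libraries alone. Among E2 libraries the 2 controls had 112 and 152 CPM, the 8 libraries with HbHp at 200 μM ran from 83.3 to 207 CPM (median 137) and the 6 with Hp from 103 to 144 CPM (median 119), so that these groups overlapped. Among E1 libraries the 7 controls ran from 228 to 732 CPM (median 486) and the 5 Hp libraries from 239 to 378 CPM (median 293). Over all libraries the log2 fold change was -0.70 ± 0.24 for HbHp at 200 μM (edgeR adjusted p = 0.0456) and -0.87 ± 0.22 for Hp (adjusted p = 0.00565). In E2 libraries alone it was -0.08 (adjusted p = 0.893) and -0.27 (adjusted p = 0.864). In E1 libraries alone, which include no HbHp, it was -1.04 for Hp (adjusted p = 0.0215). There all 5 Hp libraries were of batch 3 and 6 of 7 controls of batch 2. In batch 3 alone the log2 fold change was -0.28 for HbHp at 200 μM (edgeR adjusted p = 0.674) and -0.45 for Hp (adjusted p = 0.911). Whether the Hp effect differed between prefixes was not tested.

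**Figure D3:**
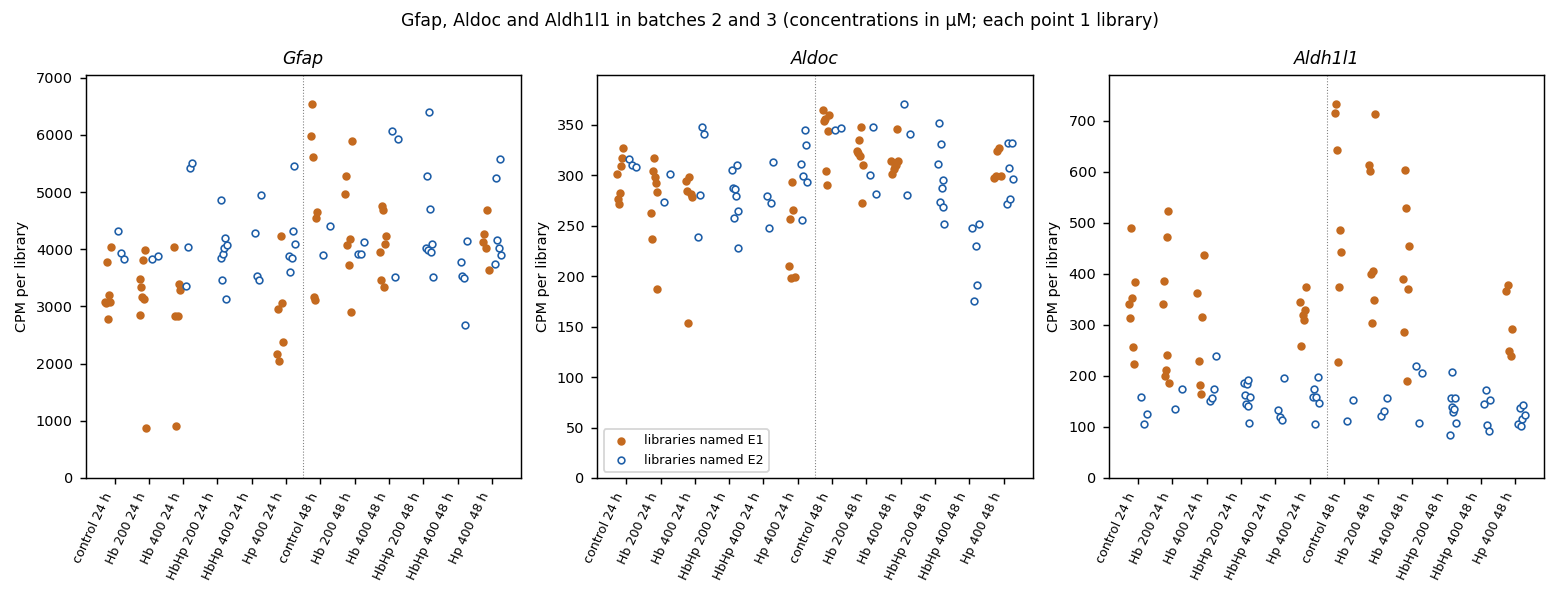
CPM of Gfap, Aldoc and Aldh1l1 (vertical axes from 0) in each library of batches 2 and 3, by group with 24 h left and 48 h right of the dotted line, filled for libraries named E1 and open for E2. Among 48 h groups Aldoc is lowest in HbHp 400 μM, and Aldh1l1 is lower in E2 than in E1 libraries within each group that has both, with overlap in the Hb 400 μM groups.

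In untreated slices 1 of 10 genes differed between 48 h and 24 h. Glul was lower at 48 h (-0.19 ± 0.06, edgeR adjusted p = 0.0392), where 4.5% of all genes were called and 2.85% were called lower. The call was lost in E1 libraries alone (adjusted p = 0.161), with no low-count filter (0.0538) and with the name code as a replicate block (0.198). Gfap (0.45 ± 0.16), Aqp4 (0.36 ± 0.13), Aldh1l1 (0.53 ± 0.19) and Sox9 (0.46 ± 0.17) had positive estimates with adjusted p between 0.092 and 0.101.

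Several of the 10 genes differed between the library-name prefixes. In the joint fit 8 of 10 genes differed between E2 and E1, 5 higher and 3 lower, where 68% of all genes were called, 36.1% higher and 31.9% lower. Aldh1l1 was lower in E2 by far the most (-1.27 ± 0.11, edgeR adjusted p = 7.13e-19), followed by Slc1a3 (-0.36 ± 0.10) and Sox9 (-0.29 ± 0.09). Aqp4 (0.51 ± 0.07), Glul (0.32 ± 0.03), Gfap (0.28 ± 0.09), S100b (0.27 ± 0.06) and Aldoc (0.11 ± 0.04) were higher, and Slc1a2 (0.01 ± 0.06) and Gja1 (0.02 ± 0.08) were not called. In 24 h controls Aldh1l1 ran from 223 to 490 CPM in the 7 E1 libraries and from 106 to 158 CPM in the 3 E2 libraries, without overlap, while Glul ran from 1789 to 2198 and from 2435 to 2761 CPM, also without overlap. All 14 microglial genes and all 12 oligodendrocyte genes were higher in E2; their part in the difference was not tested.

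**Figure D4:**
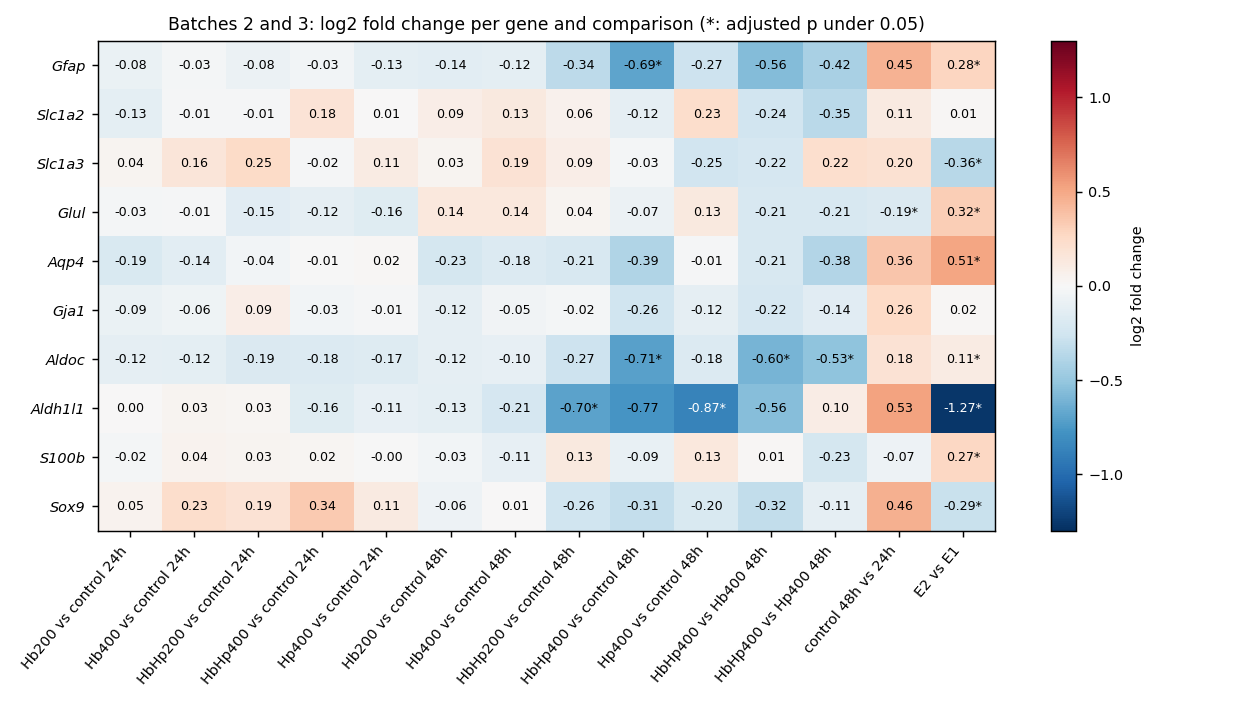
Log2 fold change (colour and printed value) of each gene (rows) in 14 comparisons of batches 2 and 3 (columns), with an asterisk for an adjusted p under 0.05. Asterisks stand on Aldoc with HbHp 400 μM at 48 h against control, Hb and Hp, on Gfap with HbHp 400 μM against control, on Aldh1l1 with HbHp 200 μM and Hp 400 μM at 48 h, on Glul between control times, and on 8 genes between prefixes.

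Libraries of the same group also differed from one another, and several of the 10 genes did so together. Aldh1l1 was taken as the reference for this after its spread had been seen. As deviations from their group mean in log2 CPM, Aldh1l1 and Slc1a3 varied together over the 60 libraries of batch 1 (Pearson r = 0.90, Spearman rho = 0.84, each with a permutation p of 1e-05, the smallest that 100000 within-group permutations can give, and r = 0.88 without the 2 libraries farthest from the median). Sox9 (r = 0.73, rho = 0.68), Gja1 (r = 0.73, rho = 0.68) and Gfap (r = 0.68, rho = 0.72) moved the same way as Aldh1l1. In the opposite direction went S100b (r = -0.87, rho = -0.81), Glul (r = -0.76, rho = -0.70) and Slc1a2 (r = -0.55, rho = -0.56). Aqp4 (r = -0.15, permutation p = 0.262) and Aldoc (r = -0.04, permutation p = 0.742) showed no such relation. These are 9 of 18 relations computed, and the 7 named before Aqp4 had adjusted p of 2e-05 or 7e-05. The permutations treated all libraries as independent, yet the same codes recur in library names across the groups. Pairs of libraries with the same code had a median correlation of 0.192 in batch 1, against -0.026 for other pairs. If a code marks shared tissue, these permutation p-values are too small, and whether it does was not tested. The Aldh1l1 deviations were uneven, with 22 libraries below and 38 at or above 0. Within those 2 sets r was 0.80 and 0.42 for Slc1a3 and -0.80 and -0.57 for S100b, but 0.08 and 0.31 for Gfap.

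Over the libraries of batches 2 and 3, with deviations taken within group and prefix, Slc1a3 (r = 0.83, rho = 0.85), Sox9 (r = 0.70, rho = 0.70), Gja1 (r = 0.65, rho = 0.66), Gfap (r = 0.63, rho = 0.67) and S100b (r = -0.68, rho = -0.63) kept the sign they had in batch 1, each with a permutation p of 1e-05. Slc1a2 had r = 0.002 (permutation p = 0.986). Name codes recur across groups in batches 2 and 3 too, so the permutation p-values there have the same limit. Unlike in batch 1, Aqp4 (r = 0.29, adjusted permutation p = 0.0165) and Aldoc (r = 0.28, adjusted permutation p = 0.0174) were weakly related to Aldh1l1, and whether the batches differ in this was not tested. Split by batch and prefix, Slc1a3 kept a positive r in all 4 sets (0.67 to 0.98), whereas S100b had r = -0.85 and -0.80 in the E1 sets of batches 2 and 3, -0.44 in the E2 set of batch 3 and 0.42 in the 11 E2 libraries of batch 2. Glul had r = -0.28 over all these libraries (rho = -0.25, adjusted permutation p = 0.0184). It was negative in the E1 sets (-0.68 and -0.11) and positive in the E2 sets (0.55 and 0.23), and whether the prefixes differ in this was not tested.

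**Figure D5:**
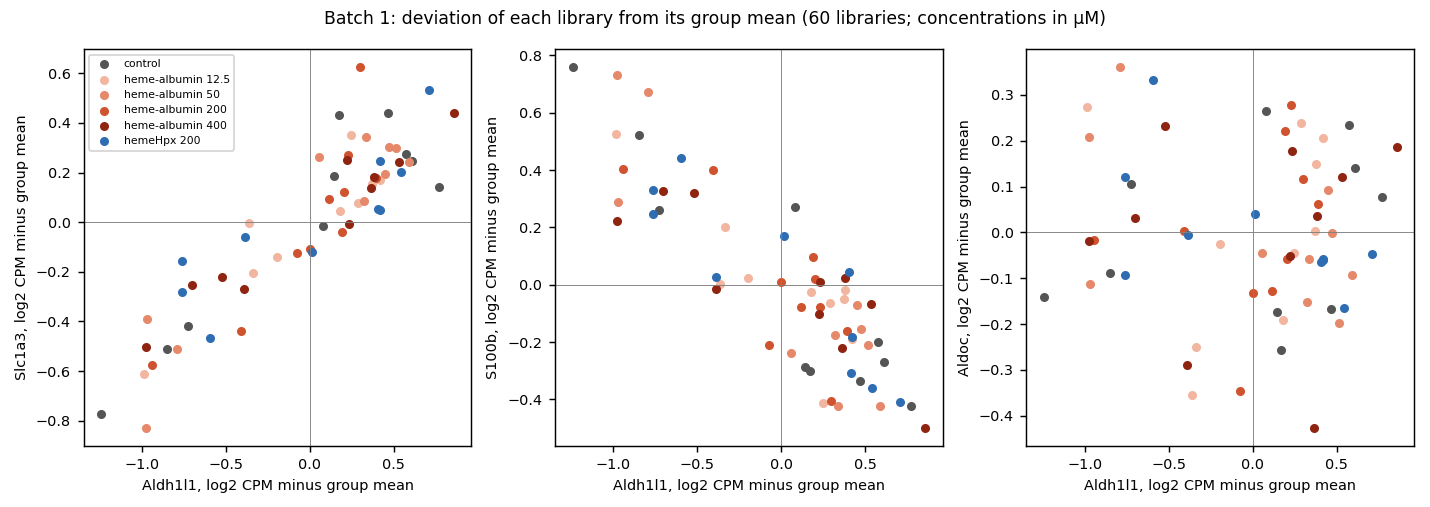
Deviation of Slc1a3, S100b and Aldoc (vertical axes, log2 CPM minus the group mean) against that of Aldh1l1 (horizontal axis, same unit) in the 60 libraries of batch 1, coloured by treatment. Slc1a3 rises with Aldh1l1, S100b falls with it and Aldoc shows no relation, in libraries of every treatment.

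Across 18 group means, centred within batch 1 and within batches 2 and 3 with batch and prefix in the fit, the members did not form 1 block. Pearson r of a gene with the mean of the other 9 was 0.94 for Gfap, 0.87 for Aldoc, 0.84 for Aqp4, 0.83 for Slc1a2 and 0.79 for Gja1, but 0.49 for Glul, 0.46 for Aldh1l1, 0.39 for Slc1a3, 0.33 for S100b and -0.01 for Sox9. These are descriptions over 18 groups that share libraries within a fit. Group means of 13886 genes, the 10 members included, were compared with the mean of the 10. The 5 genes outside the members that followed it most closely were Pygb (glycogen phosphorylase, r = 0.96), Scg3 (a secretogranin, r = 0.95), Ntrk2 (the receptor of brain-derived neurotrophic factor, r = 0.95), Adk (adenosine kinase, r = 0.94) and Mmd2 (r = 0.94).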

How the data were processed

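RNA was sequenced from 188 slice culture libraries, 167 of which have a group. The deposited values are raw counts per Ensembl gene, which the authors made with featureCounts on GRCm39 according to the submitters' processing notes; the strand setting is not given in the sources used here. The hemeHpx libraries were grouped by their tags. Genes were filtered with edgeR 4.0.16 (R 4.3.3; filterByExpr with a count minimum of 10 and a total of 15), scaled by TMM and tested with the quasi-likelihood test, with Benjamini-Hochberg adjustment over all genes. Batch 1 was fitted alone by group, and batches 2 and 3 together with batch and name prefix as terms. CPM used TMM library sizes, and log2 CPM a prior count of 2. DESeq2 1.42.0 and the other alternatives are given at the end. The members and gene lists were chosen with earlier results of these data known. All 10 members were named, and from each other list up to 3 called genes with the largest change and a mean of at least 1 CPM. Promoters came from RefSeq (GRCm38.p6), and overlaps between genes from a GRCm38 annotation, a different build from that of the counts. Among 630 pairs of libraries of the same group and batch, none agreed within sampling noise.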

Additional observations from a re-analysis of the deposited data

Results flagged for a closer look

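Of 160 combinations of gene and group with 4 to 10 libraries, 12 had a highest or lowest library whose gap to the next exceeded the 95% limit of Dixon's test; chance flags about 1 in 20 groups. Replicate 10 of Hb 200 μM at 24 h was the lowest for Gfap (869 CPM, the next being 2854), Gja1 (69.4 CPM, next 175) and Sox9 (30.7 CPM, next 63.3). Replicate 3 of Hb 400 μM at 24 h was the lowest for Slc1a2 (390.2 CPM, next 764) and Gja1 (79.5 CPM, next 167). Among 24 h controls of batches 2 and 3, Gja1 was at 134 CPM in replicate 10, with the next at 183.

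Single high libraries made up the other 6. With 12.5 μM heme-albumin they were Gja1 in replicate 7 (416 CPM, next 334) and Glul in replicate 8 (2933 CPM, next 2339). Aqp4 was at 643 CPM in replicate 8 of 200 μM heme-albumin (next 466.4), and Aldoc at 660.1 CPM in replicate 9 of hemeHpx (next 569.7). S100b was at 413 CPM in replicate 1 of HbHp 200 μM at 48 h (next 300.0), and Aqp4 at 492 CPM in replicate 4 of HbHp 400 μM at 24 h (next 441).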

How the results depend on the processing

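Over 26 comparisons, 325 alternative counts of called members were computed, of which 295 lay within 1.5 times the reported count and 30 did not. Of 3250 member values 3198 kept their side of the threshold, 27 lost the call and 25 gained it, and 0 changed sign where either value was called. Signs did change among values not called, such as Gfap with HbHp at 200 μM against control at 48 h (-0.34, but 0.02 in E2 libraries alone). The GC and length correction, the depth limit, the E1 subset and leaving out the 2 low Hb libraries were chosen after seeing the data.

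At 200 μM heme-albumin 3 members were called without the 9 shallowest libraries, which leaves 5 of 10 controls. Between 200 and 50 μM DESeq2 called 2 and the GC and length correction 2. At 24 h Hp gave 1 without a batch term. At 48 h HbHp 200 μM gave 2 with DESeq2 and 2 without the low Hb libraries, and 0 each with no low-count filter, the GC and length correction, E2 libraries, batch 3 or 48 h libraries only. HbHp 400 μM gave 1 each in E2, batch 3 and 48 h libraries only, and 1 to 3 leaving out single replicates. Hp gave 0 in each of these 3 subsets. Against Hb 200 μM, HbHp gave 1 without the prefix term, and against Hb 400 μM it gave 2 each without the prefix term, without the batch term, in E2 libraries and without the low Hb libraries. Between control times 0 were called with no low-count filter and 0 in E1 libraries, and 3 without the low Hb libraries. The cause of these shifts was not tested.

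The codes in the library names were not taken as pairing, since the labels do not explain them and only 94 of 169 same-code pairs in batch 1 and 124 of 291 in batches 2 and 3 had a correlation above 0.1. As a hint from the data, the median was 0.192 for same-code and -0.026 for other pairs in batch 1, where 50% of libraries correlated best with their own code, and 0.0611 against -0.0155 with 15% in batches 2 and 3. With the code as a replicate block, 0 members were called for HbHp 200 μM at 48 h, 1 for HbHp 400 μM at 48 h and 0 between control times; S100b was gained with hemeHpx against heme-albumin (6 called), and the other counts were equal. HbHp at 400 μM had 4 and 5 libraries, which limits its precision.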

Other observations

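The 21 libraries without a group were 20 with a tag naming HbHpx at 400 μM and a title naming hemoglobin and haptoglobin, and 1 control whose labels give conflicting times. They were not compared with any group. In the 10 labelled 24 h, Aldoc ran from 144 to 181 CPM (median 172), Slc1a2 from 474 to 698 CPM (median 559), Gfap from 2226 to 3828 CPM (median 3225) and Sox9 from 84.8 to 155 CPM (median 106). In the 10 labelled 48 h, Aldoc ran from 70.9 to 169.6 CPM (median 124), Slc1a2 from 299 to 607 CPM (median 494), Gfap from 1174 to 4517 CPM (median 2416) and Sox9 from 78.3 to 165 CPM (median 112). The control had 379 CPM for Aldoc and 4163 CPM for Gfap.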
